A study of Mus musculus with 144 samples.

Results

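Liver RNA from Bmal1-/- mice was set against liver RNA from wild-type mice at ZT06, 6 h after lights on. The 12 libraries, 6 per genotype, were chosen from the 144 of the series by genotype, RNA fraction and time in the sample labels. All mice were male C57BL/6J, lived in 12 h of light and 12 h of dark and could eat at any time. The wild-type group carried no altered allele in the labels, and the other group was labelled Bmal1-/-. The labels give no ages, do not state which part of the Bmal1 gene (symbol Arntl) was altered, and do not state that each library came from its own animal. The p-values therefore measure the spread between libraries, which may be technical in part. Total RNA was read with a 3′ tag method (QuantSeq), in which a read marks the 3′ end of a polyadenylated transcript, so that counts need no correction for gene length. Levels are given as CPM, a gene's counts scaled to the total gene counts of the library. The 6 wild-type libraries held 7077376 to 7597050 gene counts and the 6 Bmal1-/- libraries 5689420 to 11167633. The comparison asks which transcripts, and which of their 3′ end sites, differ in liver without Bmal1 at this time of day.

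BMAL1 pairs with CLOCK or its relative NPAS2 and binds E-boxes, short DNA elements of which CACGTG is the best known form. The genes activated in this way include the Per and Cry repressors, which close the main feedback loop, and the nuclear receptors REV-ERBα and REV-ERBβ (Nr1d1, Nr1d2), which repress genes with ROR elements, Arntl among them. PAR bZIP proteins such as DBP activate genes through D-boxes, where NFIL3 acts against them. In mouse liver, E-box outputs such as Dbp and Nr1d1 are known to be highest in the second part of the day, when Arntl is near its lowest.

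The sequences just upstream of 6 clock genes are shown because these genes carry the 3 element types and include genes that were higher and genes that were lower in Bmal1-/-. Each is the 250 bases before the RefSeq start of transcription (GRCm38.p6), read 5′ to 3′ on the gene's strand, with the elements in capitals. Ciart (chr3:95882229-95882478, minus strand) holds 3 E-boxes, Bhlhe41 (chr6:145865421-145865670, minus strand) 1, Per1 (chr11:69098699-69098948, plus strand) 1 E-box and 1 D-box, and Cry1 (chr10:85185055-85185304, minus strand) 1 E-box. Per3 (chr4:151044666-151044915, minus strand) holds 2 D-boxes, and Nfil3 (chr13:52981040-52981289, minus strand) 1 ROR element read on the opposite strand.
Ciart: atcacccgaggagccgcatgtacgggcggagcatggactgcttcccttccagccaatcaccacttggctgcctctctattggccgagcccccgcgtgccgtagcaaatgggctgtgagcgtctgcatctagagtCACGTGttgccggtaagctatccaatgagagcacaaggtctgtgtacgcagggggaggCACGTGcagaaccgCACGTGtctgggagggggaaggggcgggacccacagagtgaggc
Bhlhe41: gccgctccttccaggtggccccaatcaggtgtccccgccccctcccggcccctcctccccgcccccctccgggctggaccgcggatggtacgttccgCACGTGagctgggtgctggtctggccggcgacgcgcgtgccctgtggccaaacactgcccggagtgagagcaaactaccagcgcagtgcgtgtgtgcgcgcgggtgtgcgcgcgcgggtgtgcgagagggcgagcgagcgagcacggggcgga
Per1: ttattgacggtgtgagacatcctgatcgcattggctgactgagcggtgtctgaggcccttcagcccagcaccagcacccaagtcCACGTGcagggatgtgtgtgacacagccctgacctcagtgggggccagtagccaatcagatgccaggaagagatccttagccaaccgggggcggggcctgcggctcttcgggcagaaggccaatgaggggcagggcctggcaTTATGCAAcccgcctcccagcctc
Cry1: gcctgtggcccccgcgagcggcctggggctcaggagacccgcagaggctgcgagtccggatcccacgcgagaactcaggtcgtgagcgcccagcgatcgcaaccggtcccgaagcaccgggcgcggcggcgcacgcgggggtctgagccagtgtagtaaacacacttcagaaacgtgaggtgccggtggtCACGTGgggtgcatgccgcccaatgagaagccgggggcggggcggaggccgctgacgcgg
Per3: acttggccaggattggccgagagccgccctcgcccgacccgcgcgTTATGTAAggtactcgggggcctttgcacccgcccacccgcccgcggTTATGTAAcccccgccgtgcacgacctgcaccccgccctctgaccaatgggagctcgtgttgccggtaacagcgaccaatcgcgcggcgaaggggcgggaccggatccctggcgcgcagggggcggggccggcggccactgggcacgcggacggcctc
Nfil3: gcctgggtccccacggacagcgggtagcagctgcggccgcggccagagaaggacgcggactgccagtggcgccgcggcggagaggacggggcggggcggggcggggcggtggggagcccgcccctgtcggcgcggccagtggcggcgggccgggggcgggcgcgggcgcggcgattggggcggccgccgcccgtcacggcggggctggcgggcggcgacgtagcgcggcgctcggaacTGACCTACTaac
Both strands were searched for CACGTG (E-box), for TTATGTAA, TTACGTAA or TTATGCAA (D-box) and for ANTAGGTCA or ANTGGGTCA (ROR element). Per2 and Bhlhe40 were not in the table of promoters. Tef also had an E-box in this window, and the letters did not occur in the windows of Arntl, Clock, Npas2, Cry2, Nr1d1, Nr1d2, Rora, Dbp and Hlf. Among the 27025 genes of the table, 6.04% had an E-box, 1.69% a D-box and 1.17% a ROR element in a window of this length. A match describes the sequence and says nothing of binding.

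The libraries separated by genotype on the first principal component, which held 31.3% of the variance. Bmal1-/- replicate 1 stood apart on the second component (18.2%), at -71.25 against -12.03 to 25.12 for the others, and its median Spearman correlation with its own group was 0.921 against 0.953 to 0.962 in the other 11 libraries. Wild-type replicates 1 to 3 and 4 to 6 formed separate sets on the third component (12.9%): correlations within a set were 0.97 or more and those between sets 0.961 or less. In 3441 of the 11983 tested genes, the levels of wild-type replicates 1 to 3 did not overlap those of 4 to 6. What sets these libraries apart is not given in the labels. For this reason, values within replicates 1 to 3 and within replicates 4 to 6 stand beside many of the results that differ between the sets, though not beside all.

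Hepatocyte markers marked the tissue in every library, and of the 11 tested 0 passed the test between genotypes (edgeR and DESeq2; 0 at an unadjusted p under 0.05; median log2 0.16). Markers of other cells did differ. Kupffer cell markers were lower in 5 of 12 (Marco, Clec4f, Timd4, Cd68 and C1qa, median -0.76), where 4.9% of all tested genes were called lower and 5.03% higher. They had a summed level of 320 to 718 CPM in wild type and 222 to 475 in Bmal1-/-. Within replicates 1 to 3, 6 were called lower, and within replicates 4 to 6 none were. Of the 5 tested red cell genes 4 were lower (summed level 1700 to 5990 against 1130 to 1860 CPM), as were the collagens Col1a1, Col1a2 and Col3a1 among 9 stellate cell and fibroblast markers. Reln, another marker of that list, was higher, at 19.9 to 31.6 CPM in wild type and 29.9 to 46.8 CPM in Bmal1-/- (log2 0.54, adjusted p 0.0227). The 2 tested bile duct markers were higher: Sox9 was at 12.8 to 14.8 CPM in wild type and 30.8 to 62.4 CPM in Bmal1-/-, while the ductal keratins Krt19 and Krt7 stayed at or below 4.46 and 0.959 CPM in every library. Of 3 tested fat cell markers Cfd alone was called lower, with Adipoq at most 0.267 CPM and Lep at 0 throughout. No marker of this list was called within replicates 4 to 6 or without Bmal1-/- replicate 1. In bulk RNA, fewer cells of a type and less RNA per cell cannot be told apart, and the part of other cells in the results that follow was not tested.

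At ZT06, 1190 of 11983 tested genes (9.93%) passed the test at an adjusted p under 0.05 (edgeR's quasi-likelihood test with Benjamini-Hochberg adjustment, called genes below). The calls were split almost evenly: 603 were higher in Bmal1-/- (5.03% of tested genes) and 587 lower (4.9%), and 517 changed at least 2-fold (262 higher, 255 lower). The median log2 change over all tested genes was 0.015. In 409 genes all 6 Bmal1-/- libraries were above all 6 wild-type libraries (3.41%), and in 270 all were below (2.25%), or 5.67% in either direction. Replicates 1 to 3 alone gave 602 calls (5.06%) and replicates 4 to 6 alone 870 (7.2%). Of the 1190 genes, 436 were also called in the same direction in replicates 1 to 3, 544 in replicates 4 to 6 and 218 in both (124 higher, 94 lower), while 1176 and 1175 had the same sign. Since the 1190 genes were called on these same libraries, their calls and signs within each set are not an independent check. Without Bmal1-/- replicate 1 there were 1362 calls (11.3%), of which 1068 were among the 1190.

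Among the core clock genes, Npas2, Arntl, Cry1, Per1 and Nfil3 were higher in Bmal1-/-, and Nr1d1, Nr1d2, Bhlhe41, Dbp and Per3 were lower. Clock, Cry2, Bhlhe40, Rora, Tef, Hlf and Per2 were not called by edgeR. By list this was 2 higher of 3 activators, 2 higher and 2 lower of 7 tested repressors, and 1 higher and 1 lower of the 4 PAR bZIP genes with Nfil3.

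**Figure D1:**
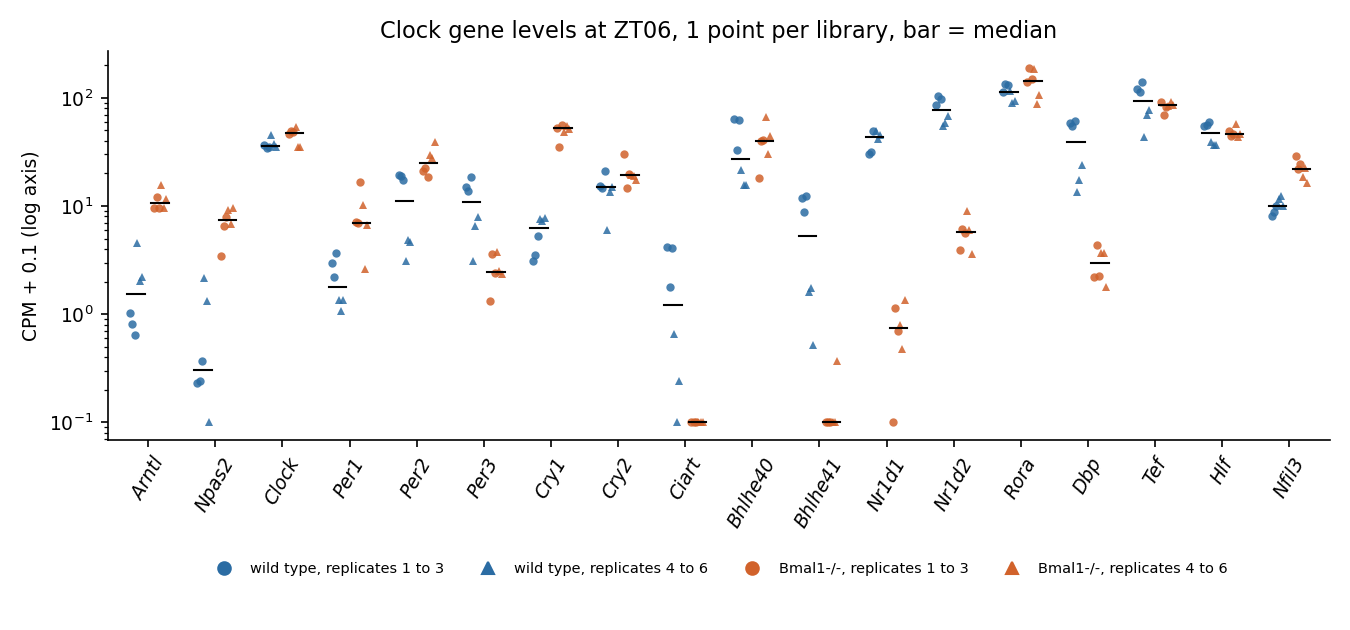
Level of each clock gene in each ZT06 library, as CPM plus 0.1 on a log axis, in wild type (blue) and Bmal1-/- (orange). Circles are replicates 1 to 3, triangles replicates 4 to 6, and bars the group medians. Nr1d1, Nr1d2, Dbp, Cry1 and Npas2 have no overlap between genotypes, and Per2 in wild type lies near the Bmal1-/- level in replicates 1 to 3 and below it in replicates 4 to 6.

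Transcripts of the altered gene itself were higher, not lower, in the libraries labelled Bmal1-/-. Arntl was at 0.535, 1.42 and 4.4 CPM (lowest, median, highest) in wild type and at 9.41, 10.5 and 15.4 CPM in Bmal1-/-. Every Bmal1-/- library was above every wild-type one, with a log2 difference of 2.61 (SE 0.37, adjusted p 2.75e-04). A 3′ tag outside the altered part does not check the genotype, and the labels do not say where that part lies. The deposited sites placed in Arntl numbered 3. Site 2 (chr7:113243662-113243709) was at 0.132 to 0.557 CPM in wild type and 1.41 to 4.83 CPM in Bmal1-/-, a log2 difference of 3.51 (adjusted p 2.82e-04 over all sites). The most distal, at chr7:113314007-113314034, was at 0 to 1.24 and 0 to 1.26 CPM and too low to be tested. Of the gene's site counts, it took 29.4% in wild type and 7.36% in Bmal1-/-. The wild-type share rests on few counts, with a median of 0.134 CPM at this site, and the difference in share was not tested.

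Npas2, whose protein can stand in for CLOCK, was at 0, 0.204 and 2.06 CPM in wild type and at 3.33, 7.29 and 9.58 CPM in Bmal1-/-. The groups did not overlap (log2 3.41, SE 0.55, adjusted p 0.00101). Clock was at 34.1, 35.7 and 45.2 CPM against 35, 47.4 and 53.6 CPM. These ranges overlapped and the difference was not called (log2 0.22, adjusted p 0.355).

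Among the repressors, Cry1 showed the clearest rise. Its level was 3.03, 6.17 and 7.65 CPM in wild type and 35, 52.2 and 55.8 CPM in Bmal1-/-. All 6 Bmal1-/- libraries were above all wild-type ones (log2 3.09, SE 0.23, adjusted p 4.81e-07). Cry2, its paralogue, was at 5.91, 14.8 and 21.1 CPM against 14.6, 19.1 and 30.3 CPM, which overlapped and was not called (log2 0.46, adjusted p 0.251).

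Of the Period genes, 1 was called higher and 1 lower. Per1 was at 0.959, 1.69 and 3.61 CPM in wild type and 2.54, 6.93 and 16.7 CPM in Bmal1-/-. Replicate 5 of Bmal1-/- lay inside the wild-type range, and the gene was called higher (log2 2.01, SE 0.40, adjusted p 0.00449). Per3 was at 3.02, 10.7 and 18.3 CPM against 1.23, 2.35 and 3.68 CPM. Bmal1-/- replicates 2 and 4 lay above the lowest wild-type library, and the fall (log2 -2.09, SE 0.36, adjusted p 0.00149) was -2.71 within replicates 1 to 3 (adjusted p 0.00149) and -1.18 within replicates 4 to 6 (adjusted p 0.0691). Per2 was at 3.02, 11 and 19.2 CPM against 18.5, 25 and 38.7 CPM and was not called by edgeR (log2 1.19, adjusted p 0.0916), but it was called higher by DESeq2 (adjusted p 0.0199) and in the edgeR fit over all 72 total RNA libraries. Its wild-type libraries fell into 2 levels, with means of 18.4 CPM (1 to 3) and 4.14 CPM (4 to 6), beside Bmal1-/- means of 20.5 and 32 CPM. Within replicates 1 to 3 the log2 difference was 0.19 (adjusted p 0.662) and within replicates 4 to 6 it was 2.82 (adjusted p 1.09e-05).

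The remaining repressors bind E-boxes or act on the CLOCK complex itself. Ciart (Chrono) gave 78 counts over the wild-type libraries, at 0, 1.12 and 4.08 CPM, and 0 counts over the Bmal1-/- libraries. Against a floor of 3 counts over the group it was at least 28.1-fold lower, and it was too low for the test. This bound holds for the summed counts only, as the wild-type means of Ciart were 3.26 CPM over replicates 1 to 3 and 0.23 CPM over replicates 4 to 6. Bhlhe41 (DEC2) was at 0.418, 5.13 and 12.3 CPM in wild type and was at 0 in 5 of the 6 Bmal1-/- libraries, with 0.269 CPM in replicate 6. The sums of 268 and 3 counts give a ratio of 96.5 per depth (95% counting interval 32.7 to 471), and the gene was called lower (adjusted p 0.00195). The wild-type means were 10.9 CPM over replicates 1 to 3 but 1.19 CPM over replicates 4 to 6. Bhlhe40 (DEC1) was at 15.4, 27.0 and 63.4 CPM against 18, 40.2 and 66.9 CPM, with no call (log2 0.15, adjusted p 0.865). Its difference was -0.67 within replicates 1 to 3 (adjusted p 0.339) and 1.31 within replicates 4 to 6 (adjusted p 0.00874).

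Both REV-ERB genes were among the strongest falls. Nr1d1 was at 30.1, 43.5 and 49.8 CPM in wild type and at 0, 0.647 and 1.25 CPM in Bmal1-/-. No library of either group came near the other (log2 -5.89, SE 0.31, adjusted p 9.78e-09). Nr1d2 was at 55.1, 76.9 and 103 CPM against 3.49, 5.70 and 8.85 CPM, again without overlap (log2 -3.84, SE 0.22, adjusted p 9.78e-09). The 2 sites of Nr1d1 fell alike, by 5.44 and 5.96 on the log2 scale. Rora (RORα), which opposes the REV-ERBs at ROR elements, was at 88.8, 114 and 135 CPM against 87.1, 144 and 187 CPM, with no call (log2 0.29, adjusted p 0.325).

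Of the PAR bZIP factors, Dbp alone was called. It was at 13.3, 39.0 and 61.3 CPM in wild type and at 1.70, 2.87 and 4.22 CPM in Bmal1-/-. The groups did not overlap (log2 -3.76, SE 0.42, adjusted p 8.39e-05), and wild-type replicates 1 to 3 averaged 58.1 CPM, those numbered 4 to 6 18.1 CPM. Tef was at 43.8, 94.3 and 140 CPM against 69.1, 85.4 and 92.3 CPM, and Hlf at 36.2, 47.1 and 59.3 CPM against 43.1, 46.7 and 56.9 CPM. Neither was called (Tef log2 -0.18, adjusted p 0.668; Hlf log2 -0.02, adjusted p 0.967), and the Bmal1-/- ranges lay inside the wild-type ranges. Nfil3, the repressor at D-boxes, was at 7.90, 10 and 12.3 CPM against 16.2, 22 and 28.7 CPM. It did not overlap (log2 1.08, SE 0.18, adjusted p 7.81e-04), with 1.52 within replicates 1 to 3 (adjusted p 0.00277) and 0.62 within replicates 4 to 6 (adjusted p 0.0784).

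Among 10 tested genes listed from general knowledge as E-box outputs, 2 were higher and 2 lower by edgeR (median -0.31; background 5.03% higher and 4.9% lower). Cdkn1a, which encodes the cell cycle inhibitor p21, was at 3.48, 5.24 and 10.5 CPM in wild type and 135, 202 and 273 CPM in Bmal1-/-. The groups lay far apart (log2 5.15, SE 0.27, adjusted p 9.78e-09). Tsc22d3, a glucocorticoid-induced gene (GILZ), was at 23.7, 24.9 and 29.5 CPM against 70.2, 117 and 160 CPM, with no overlap (log2 2.12, adjusted p 5.82e-07). The wild-type means of these 2 genes over the day ran unlike that of Dbp, which was highest at ZT10. Cdkn1a went from 4.4 CPM at ZT10 to 77.6 CPM at ZT22, and Tsc22d3 from 25.8 CPM at ZT06 to 101 CPM at ZT18. Whether they are E-box targets in these livers was not tested. Rgs16, a regulator of G protein signalling, was at 2.51, 5.27 and 15 CPM against 0, 0 and 1.03 CPM (log2 -5.01, adjusted p 0.001), and Upp2, a uridine phosphorylase, at 182, 255 and 330 CPM against 55.0, 70.2 and 157 CPM (log2 -1.63, adjusted p 3.3e-04). Both were lower in all 6 Bmal1-/- libraries than in any wild-type library. Within replicates 4 to 6 Upp2 was at -1.25 (adjusted p 0.0914). Wee1, Nampt, Usp2, Ppara, Noct and Pnpla2 were not called by edgeR. By DESeq2, as at an unadjusted p under 0.05, 2 genes of the list were higher and 4 lower.

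The 10 largest rises and 10 largest falls among called genes without overlap between the groups lay mostly outside the clock. Beside Cdkn1a, the rises were Gm43158, Sult1e1, Rps3a3, Ntrk2, AC131596.1, Gdpd3, Slc34a2, Loxl4 and Tox2. Beside Nr1d1 and Rgs16, the falls were Nat8, Saa2, Saa1, Dio1, Smim22, Clec2h, Fitm1 and AC151971.2. Ntrk2, the receptor for BDNF, was at 0.139, 0.632 and 2.14 CPM in wild type and 9.67, 41.0 and 68.4 CPM in Bmal1-/- (log2 5.44, SE 0.59, adjusted p 1.03e-04). Tox2, an HMG-box protein, was at 1.05, 3.81 and 11.6 CPM against 45.9, 67.1 and 109 CPM (log2 3.70, adjusted p 0.00147). In both, the lowest Bmal1-/- library was above the highest wild-type one, as in the 3 genes that follow. Gdpd3, a lysophospholipase D, was at 0.137 to 2.41 CPM against 16.7 to 28.7 CPM (log2 4.61, adjusted p 1.08e-06). Loxl4, a lysyl oxidase relative, was at 0.527, 1.29 and 2.75 CPM against 10.8, 17.7 and 32.2 CPM (log2 3.75, adjusted p 9.26e-05), and Slc34a2, a phosphate transporter, at 0.267, 0.471 and 1.24 CPM against 2.76, 6.09 and 20.7 CPM (log2 3.88, adjusted p 3.21e-04). Rps3a3 was at 0.565 to 3.47 CPM in wild type, at 4.39 CPM in Bmal1-/- replicate 2 and at 210 to 533 CPM in the other 5 Bmal1-/- libraries. Its reads are hard to tell from those of other ribosomal protein gene copies, so its level is uncertain.

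Of the falls, Dio1 encodes the liver deiodinase that activates thyroid hormone. It was at 66.1, 84.8 and 88.1 CPM in wild type and 0.483, 2.12 and 10.5 CPM in Bmal1-/- (log2 -4.50, SE 0.66, adjusted p 0.00142). No wild-type library was below 66.1 CPM and no Bmal1-/- library above 10.5 CPM. Nat8, an acetyltransferase of mercapturic acid synthesis, was at 11, 23.4 and 39.7 CPM against 0.345, 0.720 and 0.879 CPM (log2 -5.18, SE 0.35, adjusted p 2.97e-07). Fitm1, a lipid droplet protein, was at 12.8, 25.1 and 50.8 CPM against 0.230, 1.49 and 4.57 CPM (log2 -4.02, adjusted p 5.04e-04). Smim22 (7.83 to 23.1 CPM against 0.460 to 1.69 CPM, log2 -4.39) and Clec2h (9.61 to 31.5 CPM against 0.350 to 1.91 CPM, log2 -4.38) were lower as well. These falls were called within each replicate set except that of Dio1, which was at -3.72 in replicates 1 to 3 (adjusted p 0.0547) and -5.85 in replicates 4 to 6 (adjusted p 0.00165).

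**Figure D2:**
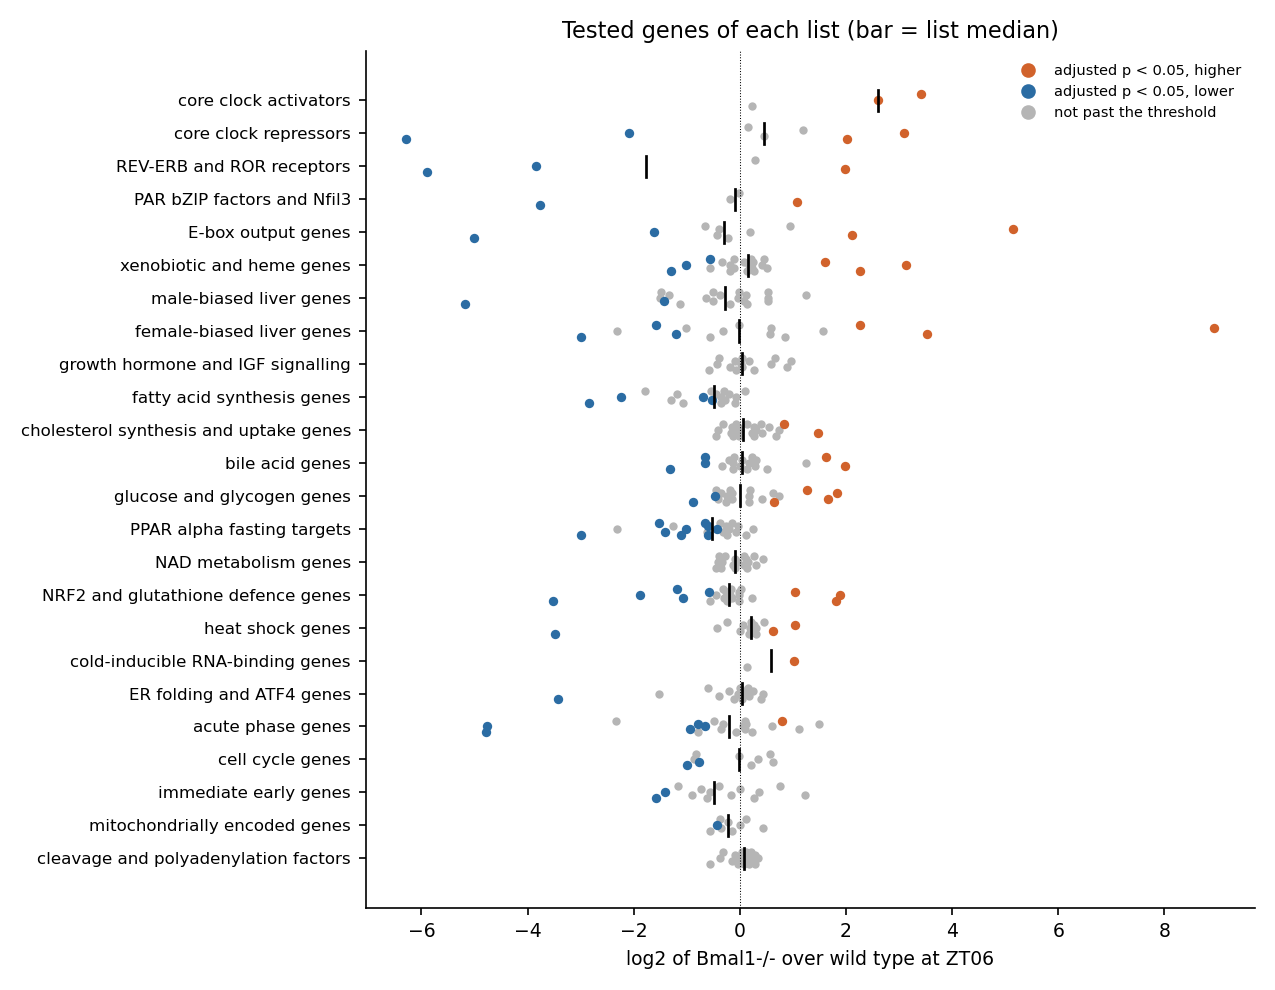
Log2 of Bmal1-/- over wild type at ZT06 for each tested gene of each list (points) with the list's median (bar). Orange points passed the test as higher and blue ones as lower, grey ones did not pass; values of genes near 0 in 1 group, such as Sult1e1, depend on the fit. PPAR alpha fasting targets have 9 lower and 0 higher points.

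Of 22 tested PPARα fasting targets, which serve fatty acid uptake, oxidation and ketone production, 9 were lower, 0 higher and 13 not called (edgeR, median -0.52, against backgrounds of 4.9% lower and 5.03% higher). At an unadjusted p under 0.05 these counts were 12 and 0, and DESeq2 gave 12 and 0. Within replicates 1 to 3, 6 were lower, and within replicates 4 to 6, 9. Fabp1, the abundant liver fatty acid binding protein, was at 4480, 5200 and 6770 CPM in wild type and 1240, 1720 and 3360 CPM in Bmal1-/- (log2 -1.51, SE 0.22, adjusted p 2.33e-04). Vnn1, a pantetheinase, was at 25.2, 34.0 and 52.7 CPM against 1.27, 5.20 and 6.68 CPM (log2 -2.99, SE 0.32, adjusted p 3.63e-05). Neither overlapped, and both were called within each replicate set. Plin2, Acot1, Slc25a20, Cpt1a, Creb3l3 and Cpt2 were also lower, with log2 differences of -1.11 to -0.43. Cpt1a, the gate for fatty acids into mitochondria, was at 118 to 142 CPM against 72.7 to 98.6 CPM (log2 -0.61, adjusted p 0.00295).

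The number of fatty acid synthesis genes called differed between the replicate sets, though the difference between the sets was not itself tested. Over all libraries, 4 of 18 tested genes were lower and 0 higher (edgeR, median -0.49; background 5.03% higher and 4.9% lower), with 10 and 0 at an unadjusted p under 0.05 and 5 and 0 by DESeq2. Within replicates 1 to 3, 8 were lower and 0 higher, and within replicates 4 to 6, 3 were lower and 1 higher. Acacb, the acetyl-CoA carboxylase at mitochondria, was at 16.3, 25.7 and 36.1 CPM in wild type and 2.45, 4.65 and 9.65 CPM in Bmal1-/-. It did not overlap and was lower in both sets (log2 -2.23, SE 0.27, adjusted p 6.38e-05). Scd1, the stearoyl-CoA desaturase, was at 983, 3460 and 6800 CPM against 262, 496 and 867 CPM, also without overlap (log2 -2.84, SE 0.53, adjusted p 0.00541). Its difference was -3.81 in replicates 1 to 3 (adjusted p 2.12e-04) and -1.32 in replicates 4 to 6 (adjusted p 0.18), beside wild-type means of 5980 and 1460 CPM. The desaturases Fads1 (245 to 330 CPM against 141 to 243 CPM, log2 -0.53, adjusted p 0.017) and Fads2 (8.56 to 18.2 CPM against 5.27 to 9.28 CPM, log2 -0.69, adjusted p 0.0473) were the other calls.

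Several lipogenic genes changed sign between the sets and were not called over all 12 libraries. Fasn, fatty acid synthase, was at 80.4, 348 and 588 CPM in wild type and 87.1, 105 and 274 CPM in Bmal1-/-. Wild-type replicates 1 to 3 averaged 547 CPM, the other 3 averaged 118 CPM, while the Bmal1-/- means were 99.2 and 174 CPM. The log2 difference was -2.43 in the first set (adjusted p 6.76e-05) and 0.44 in the second (adjusted p 0.7). Thrsp (Spot14) was at -3.15 (adjusted p 0.00428) and 1.05 (adjusted p 0.385), and Pklr, liver pyruvate kinase, at -1.55 (adjusted p 0.00176) and 0.77 (adjusted p 0.0513). Srebf1, which encodes the lipogenic regulator SREBP-1, was at -1.48 (adjusted p 0.23) and 2.00 (adjusted p 0.0092). In each of these genes the 3 wild-type libraries of the first set were on average the higher ones. The difference between the sets was not itself tested.

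**Figure D3:**
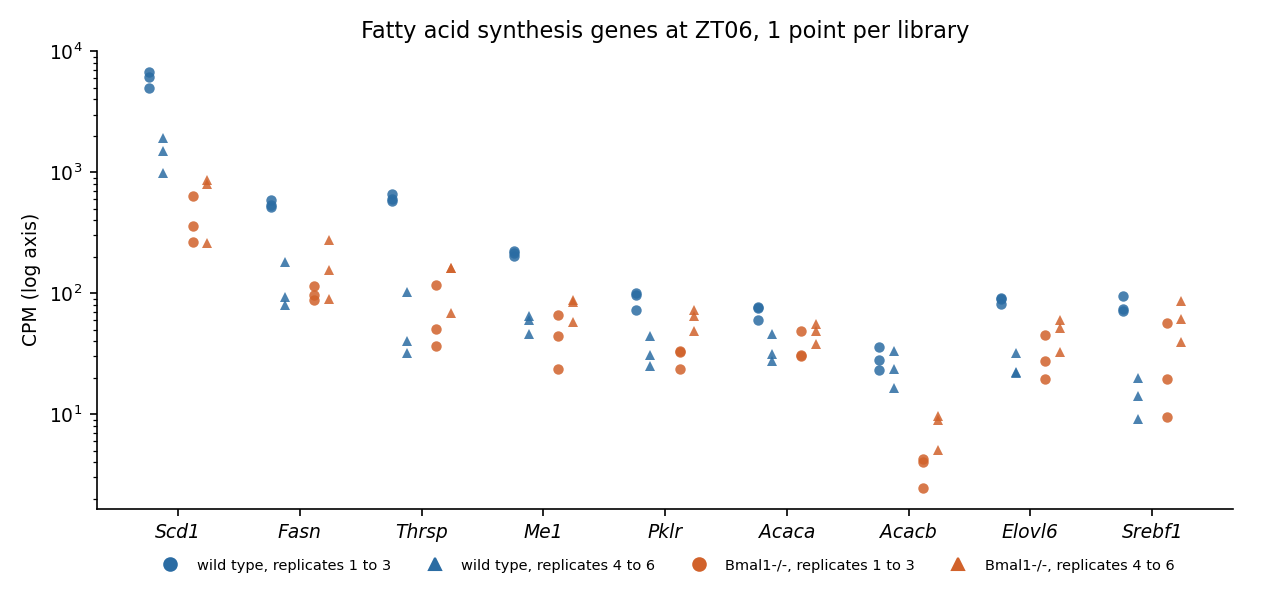
Levels of fatty acid synthesis genes in each ZT06 library (CPM, log axis) in wild type (blue) and Bmal1-/- (orange), with replicates 1 to 3 apart from replicates 4 to 6. Wild-type Fasn lies at 514 to 588 CPM in the first set and 80.4 to 181 CPM in the other.

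Of 24 tested genes for cholesterol synthesis and uptake, 2 were higher and 0 lower (edgeR, median 0.07, background 5.03% higher and 4.9% lower; 4 and 2 at an unadjusted p under 0.05, 2 and 1 by DESeq2). Insig2, a sterol sensor that holds SREBPs in the ER, was among the higher ones, at 207, 295 and 341 CPM in wild type and 367, 521 and 698 CPM in Bmal1-/-. It did not overlap (log2 0.83, SE 0.17, adjusted p 0.0053), with 0.61 in replicates 1 to 3 (adjusted p 0.0841) and 1.06 in replicates 4 to 6 (adjusted p 0.0262). Of 19 bile acid genes 2 were higher, 3 lower and 14 not called (median 0.04; background 5.03% higher and 4.9% lower). Cyp7a1, the rate-limiting enzyme of bile acid synthesis, was at 20.8, 42.8 and 50.8 CPM against 62.8, 118 and 196 CPM, without overlap (log2 1.63, SE 0.30, adjusted p 0.00325), with 1.58 in replicates 1 to 3 (adjusted p 0.0663) and 1.68 in replicates 4 to 6 (adjusted p 0.0887). Slco1a4, an uptake transporter, was at 11.2, 27.2 and 50.1 CPM against 87.3, 113 and 143 CPM (log2 1.97, SE 0.29, adjusted p 5.74e-04). Lower were Cyp8b1, the 12α-hydroxylase (121 to 549 CPM against 96.9 to 244 CPM, log2 -1.32, adjusted p 0.0286), and Cyp27a1 of the alternative pathway (240 to 387 CPM against 133 to 256 CPM, log2 -0.66, adjusted p 0.009). The fall of Cyp8b1 lost its call in 12 of 22 alternatives, with -0.88 in replicates 1 to 3 (adjusted p 0.174) and -1.60 in replicates 4 to 6 (adjusted p 0.0603). Klb, the FGF receptor partner, was at 14.4 to 17.9 CPM against 7.21 to 14.2 CPM (log2 -0.65, adjusted p 0.0208).

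In glucose and glycogen handling, 4 of 20 tested genes were higher, 2 lower and 14 not called (median 0.01; background 5.03% higher and 4.9% lower). Among the higher ones were 2 targeting subunits, which bring protein phosphatase to glycogen, where it activates glycogen synthase. Ppp1r3c was at 32.7, 50.8 and 68.9 CPM in wild type and 123, 168 and 195 CPM in Bmal1-/- (log2 1.67, SE 0.17, adjusted p 1.06e-05). Ppp1r3b was at 51.2, 77.6 and 107 CPM against 155, 216 and 602 CPM (log2 1.84, SE 0.28, adjusted p 8.21e-04). Neither overlapped. Gys2, liver glycogen synthase itself, was at 34.0, 48.2 and 57.2 CPM against 16.8, 24.9 and 37.8 CPM and was lower (log2 -0.88, SE 0.19, adjusted p 0.00769), with -1.5 in replicates 1 to 3 (adjusted p 0.00119) and -0.33 in replicates 4 to 6 (adjusted p 0.343). Gckr, a regulatory protein of glucose phosphorylation, was at 64.6 to 99.4 CPM in wild type and higher in Bmal1-/-, at 105 to 155 CPM (log2 0.65, adjusted p 0.00371). Pcx, pyruvate carboxylase, was at 52.3 to 74.3 CPM in wild type and lower in Bmal1-/-, at 38.9 to 57.2 CPM (log2 -0.46, adjusted p 0.0324). Its difference was -0.25 in replicates 1 to 3 (adjusted p 0.522) and -0.70 in replicates 4 to 6 (adjusted p 0.0209).

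Of 22 tested drug metabolism genes, 3 were higher, 3 lower and 16 not called (median 0.16; background 5.03% higher and 4.9% lower). The higher ones were cytochromes of the Cyp2b and Cyp2c families, known targets of the nuclear receptors CAR and PXR. Cyp2c29 was at 1180, 1580 and 1740 CPM in wild type and 2170, 5330 and 6070 CPM in Bmal1-/- (log2 1.61, SE 0.20, adjusted p 8.22e-05), and Cyp2c55 at 2.81, 3.34 and 8.22 CPM against 14, 38.1 and 84.0 CPM (log2 3.14, SE 0.42, adjusted p 3.47e-04). Both were without overlap. Cyp2b10 overlapped, at 1.81, 6.33 and 19.8 CPM against 15.9, 33.6 and 62.1 CPM (log2 2.26, adjusted p 0.0158), and was not called within replicates 1 to 3 (log2 1.42, adjusted p 0.156). Cyp2a5 (log2 -1.30, adjusted p 0.0469), Ces1g (-1.01, adjusted p 0.0353) and Ugt1a1, which conjugates bilirubin (-0.57, adjusted p 0.0346), were lower, each with overlap. None of the 3 was called within either replicate set alone.

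Glutathione transferases were called in both directions. Of 22 tested genes of NRF2 and glutathione defence, 3 were higher, 5 lower and 14 not called (median -0.21; background 5.03% higher and 4.9% lower). The 3 higher ones were of the mu class. Gstm2 was at 64.9, 74.0 and 113 CPM in wild type and 262, 290 and 397 CPM in Bmal1-/- (log2 1.89, SE 0.18, adjusted p 3.91e-06). Gstm3 (20.8 to 55.9 CPM against 85.6 to 177 CPM, log2 1.82) and Gstm1 (1140 to 1820 CPM against 2490 to 3450 CPM, log2 1.05) were also without overlap and were called in each replicate set. Gstm4, of the same class, was lower (29.2 to 40.1 CPM against 17.9 to 33.2 CPM, log2 -0.58, adjusted p 0.025). The alpha class genes Gsta1 (2.09 to 13.8 CPM against 0.254 to 0.845 CPM, log2 -3.52, adjusted p 1.9e-04), Gsta2 (5.63 to 19.6 CPM against 0 to 4.48 CPM, log2 -1.88, adjusted p 0.0245) and Gsta4 (28.8 to 43.1 CPM against 7.53 to 21.6 CPM, log2 -1.18, adjusted p 0.00239) were lower without overlap. Gsta2 was called in neither set alone, at -3.17 in replicates 1 to 3 (adjusted p 0.0635) and -0.97 in replicates 4 to 6 (adjusted p 0.0559). Members of these families are alike in sequence, and how reads that fit several copies were counted is not given in the sources used here.

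Genes with a known sex bias in liver follow the pattern of growth hormone release. Of 20 male-biased genes, 0 were higher and 2 lower by the edgeR test (median -0.28; background 5.03% higher and 4.9% lower), against 1 and 5 at an unadjusted p under 0.05 and 1 and 4 by DESeq2. The 2 were Nat8, given above, and Cyp4a12a, a fatty acid hydroxylase, at 712, 821 and 1060 CPM against 127, 334 and 525 CPM (log2 -1.42, SE 0.27, adjusted p 0.00342). Within replicates 1 to 3, 5 were higher and 2 lower, and within replicates 4 to 6, 0 were higher and 5 lower. Of 15 tested female-biased genes 3 were higher (Sult1e1, Sult2a7 and Cyp2b10) and 3 lower (Cyp17a1, Tox and Abcd2, median -0.01), against the same background of 5.03% and 4.9%. Sult1e1, estrogen sulfotransferase, gave 1 count over the wild-type libraries and was at 3.62, 8.25 and 58.2 CPM in Bmal1-/-. The ratio of summed counts per depth was 847 with a 95% counting interval of 152 to 33500, and the gene was called over all libraries (adjusted p 0.00117) but not within replicates 1 to 3 (adjusted p 0.0822) or 4 to 6 (adjusted p 0.165). Cyp17a1, a steroid hydroxylase, was at 1.24 to 4.81 CPM against 0 to 1.16 CPM (log2 -3.00, adjusted p 0.00128). Of 15 genes of growth hormone and IGF signalling 0 were called by edgeR or DESeq2 over all libraries (1 lower at an unadjusted p under 0.05), against 2 higher and 1 lower in replicates 1 to 3.

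The acute phase proteins, which the liver makes in inflammation, had 1 gene higher, 5 lower and 14 not called of 20 (median -0.20; background 5.03% higher and 4.9% lower). Saa1, serum amyloid A, was at 52.9, 231 and 1400 CPM in wild type and 4.25, 14.6 and 27.8 CPM in Bmal1-/-. All Bmal1-/- libraries were below all wild-type ones (log2 -4.76, SE 0.92, adjusted p 0.00786). Wild-type replicates 1 to 3 averaged 761 CPM, the other 3 averaged 78.8 CPM, and the difference was -5.46 (adjusted p 0.00537) and -2.57 (adjusted p 0.167) in the 2 sets. Saa2, a near copy whose reads may be shared, was also lower (log2 -4.79, adjusted p 0.0194), with -5.71 in replicates 1 to 3 (adjusted p 0.0261) and -1.55 in replicates 4 to 6 (adjusted p 0.27). Saa4 (160 to 308 CPM against 81.5 to 147 CPM, log2 -0.95), Orm1 (712 to 1180 CPM against 409 to 654 CPM, log2 -0.79) and Hpx, hemopexin (2070 to 3630 CPM against 1550 to 2180 CPM, log2 -0.66), were lower. Cp, ceruloplasmin, was at 1000 to 1700 CPM in wild type and higher in Bmal1-/-, at 2040 to 2630 CPM (log2 0.80, adjusted p 9.45e-04). The summed Kupffer cell markers given above were also lower, and their part in these values was not tested.

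Hspb1, a small heat shock protein, was at 5.49, 8.70 and 10.4 CPM in wild type and 0.176, 0.580 and 1.53 CPM in Bmal1-/- (log2 -3.48, SE 0.33, adjusted p 3.98e-06), while Hsph1 (12.0 to 20.3 CPM against 20.5 to 31.3 CPM, log2 0.63) and Hspa1b (1.55 to 3.98 CPM against 1.58 to 10.4 CPM, log2 1.05, adjusted p 0.0486) were the 2 higher of 15 heat shock genes (background 5.03% higher and 4.9% lower). Trib3, a pseudokinase of the ATF4 response, was at 5.13, 8.54 and 12.2 CPM against 0.352, 0.843 and 1.25 CPM (log2 -3.43, SE 0.32, adjusted p 3.61e-06) and was the only call by edgeR among 17 genes of ER folding and ATF4 (2 lower by DESeq2). Hspb1 and Trib3 were without overlap and were called in each replicate set. Hsph1 and Hspa1b were called in neither set alone, and Hspa1b lost its call in 18 of 21 alternatives. Rbm3, a cold-inducible RNA-binding protein, was at 6.71, 11.8 and 16.5 CPM against 19.6, 23.5 and 32 CPM (log2 1.02, SE 0.18, adjusted p 0.00129), and its partner in the list, Cirbp, was not called (log2 0.14, adjusted p 0.75). Of 14 immediate early genes, Junb (14.4 to 32.5 CPM against 5.10 to 11.9 CPM, log2 -1.40, adjusted p 5.12e-04) and Gadd45a (2.23 to 6.71 CPM against 0.381 to 2.69 CPM, log2 -1.59, adjusted p 0.0117) were lower. Gadd45a was not called within replicates 4 to 6 (log2 -0.96, adjusted p 0.309). Of 9 cell cycle genes Top2a (log2 -0.99, adjusted p 0.024) and Ccnd1 (log2 -0.76, adjusted p 0.0415) were lower. Neither was called within either replicate set, and the calls were lost in 9 of 21 (Top2a) and 11 of 22 (Ccnd1) alternatives. Among 9 tested mitochondrially encoded genes mt-Nd4l was the only call by edgeR (log2 -0.42, adjusted p 0.0405), while DESeq2 called 2 lower and 3 were lower at an unadjusted p under 0.05. The mt-Nd4l call was absent within either replicate set and was lost in 11 of 22 alternatives. Of 20 NAD metabolism genes 0 were called by edgeR, 1 as lower by DESeq2 and 5 passed an unadjusted p under 0.05 (1 higher, 4 lower). Of 22 cleavage and polyadenylation factors 0 were called by edgeR, 1 as lower by DESeq2 and 2 passed an unadjusted p under 0.05 (1 higher, 1 lower).

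To see where ZT06 was unlike the rest of the day, the difference between genotypes at this time was set against the mean difference at the 5 other times (ZT02, ZT10, ZT14, ZT18 and ZT22) in 1 fit over all 72 total RNA libraries. It differed in 18 of 12082 genes (0.149%; edgeR interaction contrast), more positive in 12 and more negative in 6. In Chka, Cry1, Arntl, Nr1d1 and Dbp the mean over the Bmal1-/- libraries moved little over the day beside that over the wild-type libraries. Chka, choline kinase, had Bmal1-/- means of 87.6 to 114 CPM at all 6 times and wild-type means of 9.52 CPM at ZT10, 18.2 CPM at ZT06 and up to 90.0 CPM at ZT02 (difference of differences 1.22 on the log2 scale). Cry1 had Bmal1-/- means of 49.7 to 65.7 CPM and wild-type means from 5.66 CPM at ZT06 to 36.9 CPM at ZT22 (1.63). Arntl had Bmal1-/- means of 9.16 to 13.1 CPM and wild-type means from 0.852 CPM at ZT10 to 12.6 CPM at ZT22 (1.63), and no call was made at ZT02, ZT18 or ZT22 (log2 -0.42, 0.26 and -0.26, adjusted p 0.42, 0.46 and 0.583).

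Nr1d1, Dbp and Per1 were also in this group. Nr1d1 had Bmal1-/- means of 0.413 to 0.921 CPM and wild-type means from 0.718 CPM at ZT18 to 41.3 CPM at ZT06 (difference of differences -3.04, adjusted p 0.00509). Dbp had Bmal1-/- means of 2.42 to 3.22 CPM and wild-type means from 1.05 CPM at ZT02 to 97.6 CPM at ZT10 (-2.43, adjusted p 3.12e-04). In Per1 the sign turned between ZT06 and ZT10: Bmal1-/- was above wild type at ZT06 (8.32 against 2.01 CPM) and below it at ZT10 (7.47 against 14.3 CPM, log2 -1.03, adjusted p 0.0109). The genes outside the clock were Ppp1r3b (2.08), Lonrf3 (1.67), Tsc22d3 (1.57), Tsr1 (0.80), Rhobtb1 (0.79), Jade1 (-0.81), Dixdc1 (-1.23), Junb (-1.74), Socs3 (-1.88) and the pair Gm20634 and Hist2h3c1, whose near-identical counts may be shared reads. Ppp1r3b had a wild-type mean of 77.4 CPM at ZT06 and 168 to 373 CPM at the other times, against 221 to 304 CPM in Bmal1-/- at all 6. Socs3 and Junb, early response genes, ran the other way: the wild-type mean was highest at ZT06 (14.6 and 20.7 CPM), where the Bmal1-/- mean was lowest (6.18 and 7.93 CPM). Replicates 1 to 3 gave 15 such genes and replicates 4 to 6 gave 1.

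**Figure D4:**
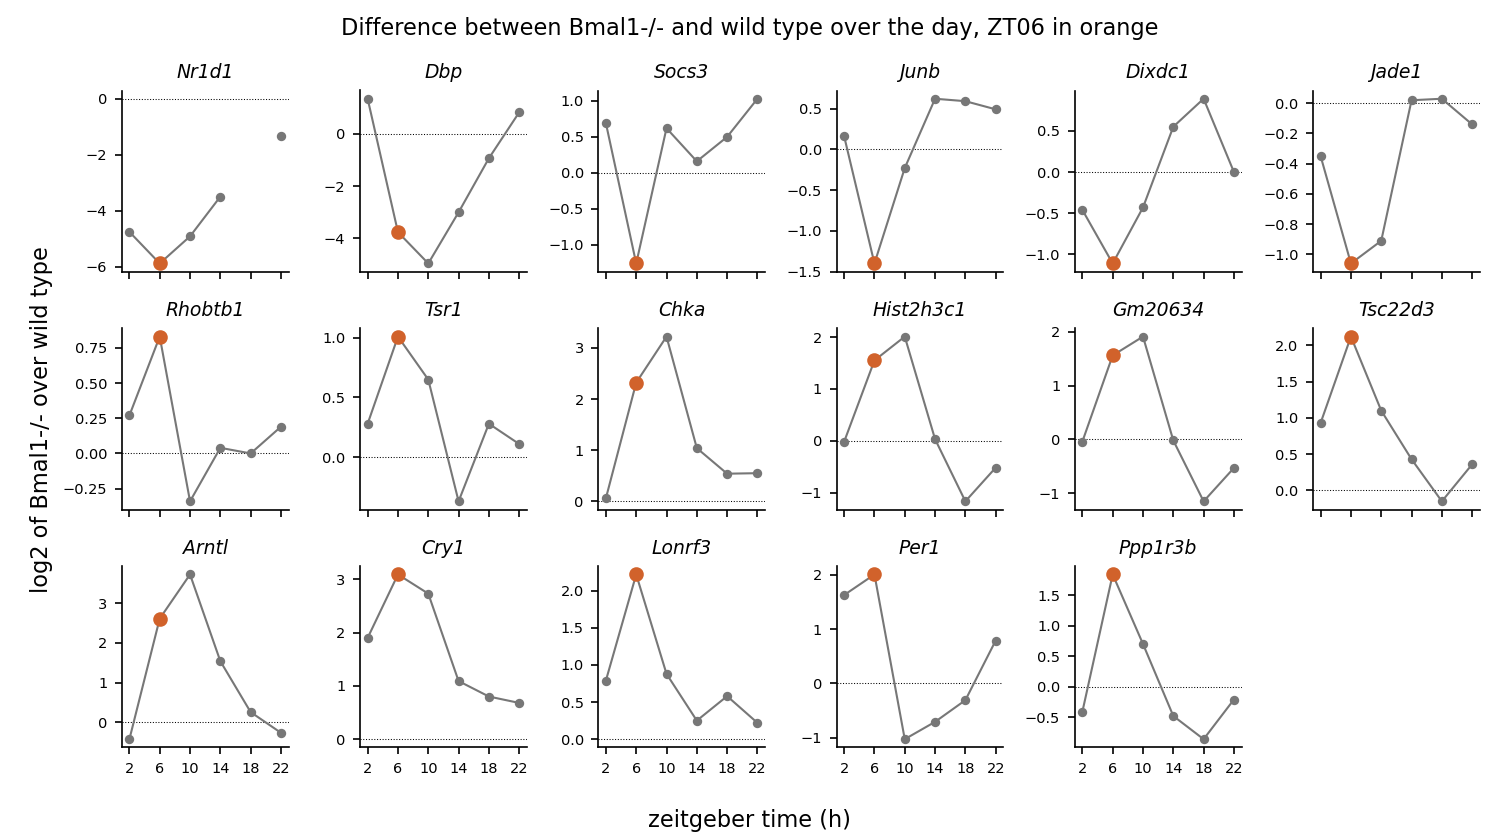
Log2 of Bmal1-/- over wild type at 6 times of day (zeitgeber time in h) for genes whose ZT06 difference was unlike the mean of the others, with ZT06 in orange. Arntl is at 2.61 at ZT06, 3.72 at ZT10 and -0.42 at ZT02; a time without a point had too few counts for the test at that time.

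Set against its direct neighbours, ZT06 differed from ZT02 in 14 genes (0.116%) and from ZT10 in 14 (0.116%). Against ZT02 these were mostly genes whose ZT06 difference was larger than, or opposite to, that 4 h earlier, such as Dbp (log2 1.35 at ZT02 and -3.76 at ZT06), Tef (1.38 and -0.18), Nfil3 (-0.49 and 1.08) and Ppard, a fatty acid receptor (0.26 and 2.87, means of 1.51 CPM in wild type and 11.4 CPM in Bmal1-/- at ZT06). Arntl, Cry1, Nr1d1 and Dbp were not among the genes that differed between ZT06 and ZT10 (adjusted p 0.894 or more), and Arntl was at 3.72 and Dbp at -4.96 at ZT10. Cry1 and Nr1d1 did not pass the contrast with ZT02 either (adjusted p 0.116 and 0.8). Against ZT10 the 14 included Usp2 (-3.11 at ZT10 and -0.23 at ZT06), Coq10b (-2.07 and -0.12), Clock (1.23 and 0.22) and Wee1, all called at ZT10 and not at ZT06. Of the 1190 genes called at ZT06, 252 were called with the same sign at no other time, 294 at 1, 233 at 2, 185 at 3, 132 at 4 and 94 at all 5, and 879 had the same sign at all 5 other times. ZT10, with 2295 calls (19.0% of its tested genes), held 841 of the ZT06 calls in the same direction (70.7%). ZT02, with 406 calls (3.35%), held 286 (24.0%). Taken as shares of the calls at those times, the order was reversed, at 36.6% for ZT10 and 70.4% for ZT02. These shares therefore depend on how many genes each time called. Each time has its own libraries, so no control is shared between them.

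At the level of single 3′ end sites, 814 of 19536 tested sites (4.17%) were called, 398 higher and 416 lower. Of these, 688 fell to 514 genes by position, and 446 of the 514 were called at the gene level too. Called sites in both directions occurred in 2 genes, Me1 and Tdo2. The share that each site takes of its gene's counts differed in far fewer cases: 13 of 12303 sites in 12 of 3978 genes (0.106%; 9 higher and 4 lower in Bmal1-/-). The mean share of the most distal site over genes was 44.7% ± 2.20 (SD, n = 6) in wild type and 43.7% ± 1.91 (SD, n = 6) in Bmal1-/-, a difference of -1.02 points (two-sided exact permutation test, p = 0.403).

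**Figure D5:**
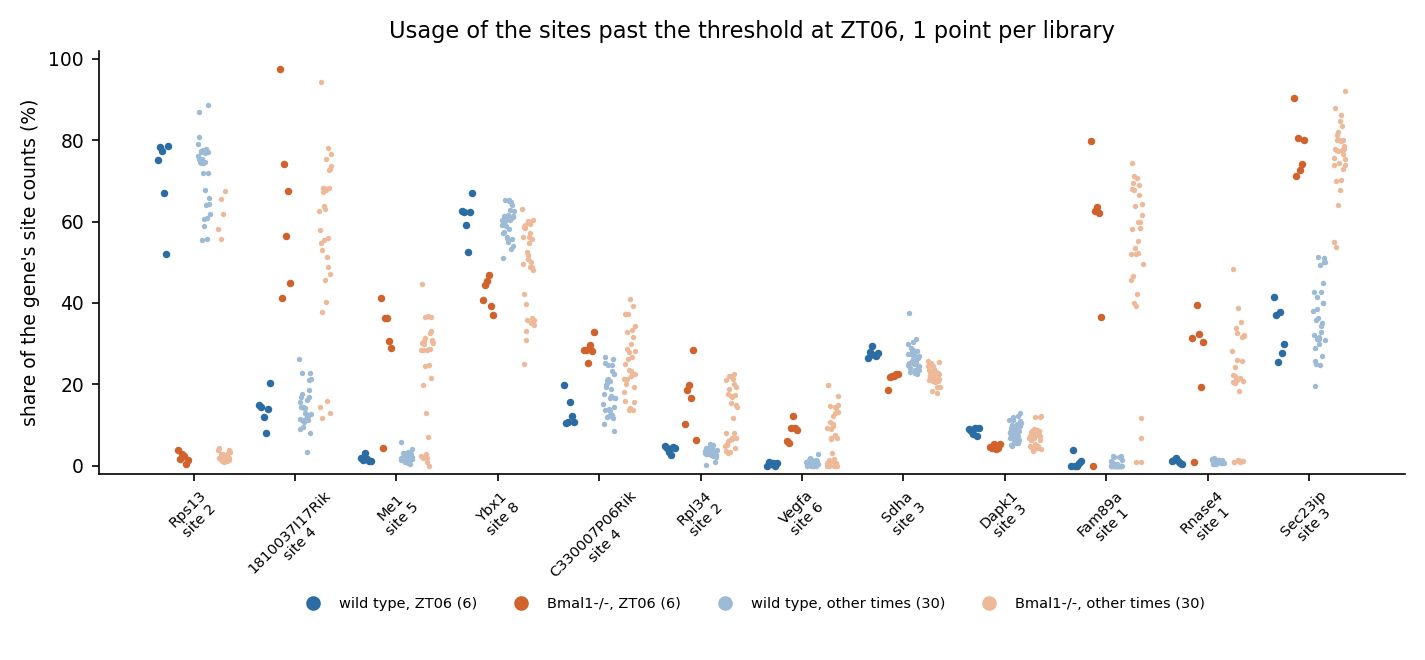
Share of the gene's site counts (%) taken by each site past the threshold at ZT06, 1 point per library, in wild type (blue) and Bmal1-/- (orange), with the other 5 times in paler colours. Rps13 site 2 lies at 51.9 to 78.6% in wild type and 0.280 to 3.80% in Bmal1-/- at ZT06.

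The largest shift was in Rps13, a small ribosomal subunit protein. Its distal site (chr7:116331504-116331615, minus strand) took 51.9, 76.2 and 78.6% of the gene's site counts in wild type and 0.280, 1.93 and 3.80% in Bmal1-/- (adjusted p 1.51e-06). The rest went to its proximal site at chr7:116332417-116332482. At the other times, 25 of 30 Bmal1-/- libraries had 0.975 to 4.27% at the distal site, and 5 had 55.7 to 67.6%, inside the range of all 36 wild-type libraries (51.9 to 88.6%). Sec23ip, a COPII-binding protein, used its site 3 of 4 (chr7:128783931-128784005) at 25.4, 33.5 and 41.5% in wild type and 71.2, 77.1 and 90.3% in Bmal1-/- (adjusted p 7.62e-04), and all 30 Bmal1-/- libraries of the other times, at 53.8 to 92.2%, were above the wild-type range (19.6 to 51.3%). 1810037I17Rik used its most distal site at 8 to 20.2% against 41.3 to 97.5%. Rps13 and Rpl34 have near copies in the genome, which makes their site counts uncertain. Rps13 and Sec23ip lie on chromosome 7, as does Arntl. Whether the usage differences come from loss of Bmal1 or from other sequence differences between the mice was not tested.

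Other genes used a site in Bmal1-/- that was little used in wild type. Me1, malic enzyme, had 1.02, 1.43 and 3.15% at site 5 of 6 in wild type and 4.2, 33.4 and 41.2% in Bmal1-/-, where replicate 2 was the lowest. Vegfa, the vascular growth factor, had 0, 0.421 and 0.948% at its most distal site against 5.62, 8.89 and 12.3%, and Rpl34 2.47 to 4.68% against 6.37 to 28.3% at site 2 of 3. Rnase4, a secreted ribonuclease, had 0.444 to 1.80% at its proximal site in wild type, 0.975% in Bmal1-/- replicate 2 and 19.2 to 39.4% in the other 5. Fam89a had 0 to 3.75% in wild type, 0% in Bmal1-/- replicate 2 and 36.6 to 79.8% in the others. Replicate 2 was thus at or near the wild-type share in Rnase4 and Fam89a and not in Rps13 or Sec23ip. In Me1 its 4.2% was above the wild-type libraries of ZT06 but inside the range of all 36 (0.466 to 5.8%). At the other times, 9 of 30 Bmal1-/- libraries were inside the wild-type range for Rnase4, 2 for Fam89a, 5 for Me1, 10 for Vegfa and 6 for Rpl34.

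The remaining usage differences were smaller. Ybx1, an RNA-binding cold shock domain protein, used site 8 of 10 at 52.4 to 66.9% in wild type and 37.0 to 46.8% in Bmal1-/- (adjusted p 0.00966). Sdha, a subunit of succinate dehydrogenase, used its distal site at 26.5 to 29.4% against 18.5 to 22.6% (adjusted p 0.0256), Dapk1, a death-associated kinase, at 7.22 to 9.34% against 3.95 to 5.39% (adjusted p 0.0256), and C330007P06Rik at 10.4 to 19.8% against 25.2 to 32.8% (adjusted p 0.0394). None of the 4 overlapped between genotypes at ZT06. At the other times, of 30 Bmal1-/- libraries, 14 were inside the range of all wild-type libraries for Ybx1, 11 for Sdha, 25 for Dapk1 and 17 for C330007P06Rik. Only 2 of 12633 sites (0.0158%) had a usage difference at ZT06 unlike that of the other 5 times, Chka site 1 (2.74 to 12.1% in wild type and 12.7 to 36.6% in Bmal1-/- at ZT06) and Errfi1 site 6 (19.6 to 27.7% against 26 to 41.0%). Neither passed the usage test at ZT06 itself (edgeR, adjusted p 0.264 for Chka and 0.639 for Errfi1). For each, 5 of 6 Bmal1-/- libraries at ZT06 and 29 of 30 at the other times were inside the range of all wild-type libraries. Mean wild-type shares of Chka site 1 were 7.46% at ZT06 and 17.4% at the other times, beside 20.9% and 18.2% in Bmal1-/-. No clock gene was among the 12 genes with a called site, but several could not have been. Cry1, Nfil3, Per1 and Per2 had 1 site each, with 100% of the gene's site counts in both genotypes, so their usage could not differ. Arntl, Npas2 and Per3 had low counts, with site medians of at most 3.34 CPM in either genotype. The result therefore bears only on the clock genes that this test could reach, and their number was not counted.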

How the data were processed

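Gene counts and counts per polyadenylation site were deposited by the authors as raw tables, unnormalized. Per the submitters' processing notes, STAR 2.4.2a, HOMER and edgeR were used with builds mm10 and GRCm38.p5, with no role stated; how reads that fit several places were counted is not given in the sources used here. Libraries were mapped to groups by their titles. Genes that averaged 10 counts or more in a library were fitted with edgeR 4.0.16 (quasi-likelihood, robust, TMM; R 4.3.3) over the 12 ZT06 libraries, with Benjamini-Hochberg adjustment at 0.05. Contrasts between times used all 72 total RNA libraries. Usage was fitted on site counts with log(gene total + 0.5) as offset, for sites with at least 5% of a gene with a mean of 50 counts. Deposited sites carry no gene name: 24657 of 29199 sites were placed in 8307 genes by position.

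The genotypes, time and gene lists were chosen with earlier results of these data known. Named were all clock genes, the 10 largest rises and falls among called genes without overlap and with 50 counts in the higher group, up to 3 called genes per list and direction, the 5 most positive and 5 most negative contrasts with the other times, and the 8 genes with the largest usage shift; some genes that meet this rule are not reported here. Genes named outside this rule (Sox9, Fasn, Thrsp, Pklr, Srebf1, Fads2, the further contrasts and sites) were chosen after their values were seen. On simulated counts for this comparison the gene test found 47 of 97 genes changed 2-fold and 12 of 100 changed 1.5-fold among 11847 genes, with 1 false call. The usage test was tried on counts simulated with chosen totals and spread, not those of these libraries. It found 173 of 200 sites moved by 15 points among 6000, with 13 false, which does not give its power here. No pair among 30 within-group pairs of libraries was identical (lowest chi-square per degree of freedom 7.23). Intervals cover counting error only. Promoters came from RefSeq (GRCm38.p6); 8495 of the 11983 tested genes matched.

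Alternatives were DESeq2 1.42.0, median-ratio size factors, other count filters, the 72-library fit, a replicate block, each replicate set alone and each library left out. All Bmal1-/- libraries against either wild-type set was added after seeing the data.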

Additional observations from a re-analysis of the deposited data

Results flagged for a closer look

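In 22 of 178 groups of 6 libraries (1 named gene in 1 genotype), the highest or lowest library lay far from the others by Dixon's criterion, where chance gives about 1 in 20; 4 of the 22 were Bmal1-/- replicate 1. In wild type these were Clock in replicate 4 (45.2 CPM), Sult1e1 (0.141), Cdkn1a (10.5), Gsta1 (13.8) and Gsta2 (19.6 CPM) in replicate 2, Gdpd3 (2.41) and Junb (32.5 CPM) in replicate 3, Slc34a2 (1.24) and Dio1 (66.1 CPM) in replicate 4, and Saa1 (1400) and Saa2 (745 CPM) in replicate 1. In Bmal1-/- they were Cry2 (30.3), Gm43158 (22.8), Cyp2a5 (13) and Dixdc1 (11.2 CPM) in replicate 1, Cry1 (35) and Sult2a7 (88.4 CPM) in replicate 2, Nat8 (0.345) and Rgs16 (1.03 CPM) in replicate 4, Cyp8b1 in replicate 5 (244 CPM), and Bhlhe41 (0.269) and Ppp1r3b (602 CPM) in replicate 6.

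The difference between genotypes at ZT06 was unlike the mean of the other 5 times in 18 genes by the interaction contrast. The differences of log2 differences included 2.08 in Ppp1r3b, 1.91 in Per1, 1.67 in Lonrf3, 1.63 in Cry1 and in Arntl, 1.57 in Tsc22d3, 1.51 in Gm20634, 1.48 in Hist2h3c1, 1.22 in Chka, 0.80 in Tsr1 and 0.79 in Rhobtb1. On the negative side they were -3.04 in Nr1d1, -2.43 in Dbp, -1.88 in Socs3, -1.74 in Junb, -1.23 in Dixdc1 and -0.81 in Jade1.

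Against ZT02 the difference at ZT06 was more positive in Arntl (3.02), Ppard (2.6), Chka (2.26), Ppp1r3b (2.24), Nfil3 (1.57), Proser2 (1.25), Tsc22d3 (1.19) and Caprin1 (0.83), and more negative in Saa2 (-6.73), Saa1 (-5.74), Dbp (-5.10), Per3 (-2.89), Fgl1 (-2.26) and Tef (-1.56). Against ZT10 it was more positive in Per1 (3.02), Usp2 (2.85), Wee1 (2.14), Coq10b (1.93), Tef (1.3), Rhobtb1 (1.16) and Nhlrc2 (0.91), and more negative in Dhrs9 (-3.92), Asap2 (-1.94), Lum (-1.78), Slc30a10 (-1.19), Gtf2ird1 (-1.14), Clock (-1.02) and Trim2 (-0.92). For site usage, the difference at ZT06 was unlike that of the other times at Chka site 1 (1.42 on the log2 scale) and Errfi1 site 6 (0.63).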

How the results depend on the processing

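In place of the 1190 calls at gene level there were 602 in replicates 1 to 3, 637 for all Bmal1-/- libraries against wild-type replicates 4 to 6 and 864 to 1362 when 1 library was left out (without Bmal1-/- replicates 3 and 1). DESeq2 gave 1582 calls and a mean of at least 50 counts 900. The 814 site calls became 1376 with DESeq2, 316 in replicates 1 to 3, 377 against wild-type replicates 4 to 6 and 570 to 1088 without 1 library. The 18 genes unlike the other times became 1 in replicates 4 to 6 and 11 to 21 without 1 library. The 14 unlike ZT02 became 25 in replicates 1 to 3, 0 in replicates 4 to 6 (edgeR, with 1765 at an unadjusted p under 0.05) and 7 to 16 without 1 library (7 without wild-type replicate 1). The 14 unlike ZT10 became 7 with no count filter, 22 with the replicate block, 8 in replicates 1 to 3, 4 in replicates 4 to 6 and 8 to 18 without 1 library (8 without wild-type replicate 4). The 13 usage calls became 29 with all 72 libraries, 8 with the replicate block, 2 in replicates 1 to 3 and 6 to 27 without 1 library (6 without Bmal1-/- replicate 3, 27 without replicate 1). The 2 usage calls against the other times became 0 to 2 without 1 library. They were 0 by edgeR without wild-type replicate 2, 4, 5 or 6, and without Bmal1-/- replicate 1. The distal share difference was -1.60 to -0.32 points without 1 library and p = 0.2188 with the block (exact sign-flip test). The cause of these shifts was not tested.

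Replicate numbers did not pair the libraries: same-numbered ones correlated at -0.046 to 0.163 and 2 of 6 matched their own number best. A replicate block gave 1093 gene and 725 site calls. Of 82 called named genes, 39 stayed past the threshold in every alternative, 61 in every one that kept both replicate sets, and 0 changed sign in any. The alternatives reuse the libraries on which these genes were called, so a kept sign is not an independent check. Among uncalled ones, signs turned for Clock (-0.052 in replicates 4 to 6), Bhlhe40 (-0.667 in replicates 1 to 3, -0.426 against wild-type replicates 1 to 3, -0.049 without Bmal1-/- replicate 4 and up to 0.41 without another), Tef (0.344 in replicates 4 to 6, 0.327 against wild-type replicates 4 to 6) and Hlf (0.005 with the block, 0.26 in replicates 4 to 6, 0.267 against wild-type replicates 4 to 6, 0.032, 0.041 and 0.038 without wild-type replicates 1, 2 and 3, 0.003 and 0.007 without Bmal1-/- replicates 2 and 5, down to -0.072 without another). Depth limits the low genes: Ciart, the outer sites of Arntl and 6 of 8 bile duct markers were not tested.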

Other observations

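The D-box and ROR element letters were also counted in the upstream windows of all matched genes, as a description. A D-box occurred in 10 of 388 genes called higher in Bmal1-/- (2.58%), in 13 of 450 called lower (2.89%) and in 85 of 7657 not called (1.11%). Among the 13 were Per3, the carboxylesterases Ces1e (log2 -2.02, adjusted p 3.98e-06) and Ces1g, the serum amyloid Saa3 (log2 -2.20, adjusted p 1.81e-04) and Gadd45a, and among the 10 were Per1, Cyp2b10 and the complement component C9 (log2 0.90, adjusted p 0.00194). A ROR element occurred in 11 of the genes called higher (2.84%), in 5 called lower (1.11%) and in 67 not called (0.875%). The 11 included Nfil3, Apoh (log2 0.87, adjusted p 6.04e-05), Bhmt of methionine synthesis (log2 1.37, adjusted p 1.55e-04) and Sec23ip, whose site usage also differed. The E-box CACGTG occurred in 8.25% of genes called higher, 7.11% called lower and 8.71% not called. These shares rest on 5 to 13 genes for the D-box and ROR element, and the difference between them was not tested.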
